A study of Mus musculus with 6 samples.

Results

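A small set of mouse testis small RNAs without a piRNA name stood higher after heat, in a class whose share of the reads was lower in each heat stress library. The set holds 67 of the 634394 species with uniq_ identifiers, out of 659239 species listed in all. A uniq_ species belongs to it when its mean in control was below 100 RPM (reads scaled to a total of 1000000 on the listed species), its mean after heat was 20 RPM or more, and each heat stress library exceeded the highest control library. The species were thus chosen by their measured values in both groups, so their rise is given here as a description, with no test, and "rising" below means that the rule was met. The files do not define the uniq_ type and hold neither sequence nor position for it, so no sequence, length, locus or host transcript can be given for any of the 67.

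Small RNA from testicle of C57BL/6 mice was sequenced in 3 heat stress and 3 control libraries. In the heat stress group the scrotum was held in a water bath at 43 °C for 15 minutes, and in the control group at 36 °C for the same 15 minutes, so both groups had been handled and immersed. Tissue was taken 24 hours later. The labels speak of 12 mice in 2 groups and do not say how many mice a library holds, nor their age, and give no batch, so the spread between libraries may be partly technical.

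Most piRNAs are made in germ cells of the testis, where they are bound by PIWI proteins and guide the silencing of transposons and the removal of other transcripts. They are cut from long precursor transcripts, so that 1 precursor yields many overlapping species that differ at their ends, and a catalogue of named piRNAs covers only part of what a library holds. Spermatocytes and spermatids hold different piRNA populations and are among the testis cells most sensitive to heat. In whole tissue, fewer cells of a type and less RNA per cell cannot be told apart, and this holds for every difference below. The files name no gene, so the tissue label could not be set against cell type markers.

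The libraries held 2573473 to 4255001 reads on listed species in control and 582789 to 2599530 after heat. Heat stress replicate 3 was the shallowest. A single read counts for 1.72 RPM there, and for 0.235 to 0.442 RPM elsewhere. Heat stress replicate 2 kept the most uniq_ reads of its group, 22.8% of the library, against 12.5% in replicate 1 and 7.36% in replicate 3. In the controls uniq_ reads made up 32.7% to 32.8%.

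The rising species were few beside the falling ones. With the groups exchanged in the rule (heat mean below 100 RPM, control mean of 20 RPM or more, each heat stress library under the lowest control), 1487 uniq_ species were falling, 22.2 for each rising one. Of the 360 uniq_ species inside both mean limits of the rule, 18.6% had non-overlapping groups with heat above, which are the 67. Of the 1821 inside both limits of the mirrored rule, 81.7% had non-overlapping groups with heat below. Among all uniq_ species the 67 are 0.0106%. On the same RPM scale the named mmu_piR_ species were nearer to balance: 1941 met the rule, 45.1% of those inside its mean limits, and 1398 the mirrored rule, 41% of those inside its limits.

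**Figure D1:**
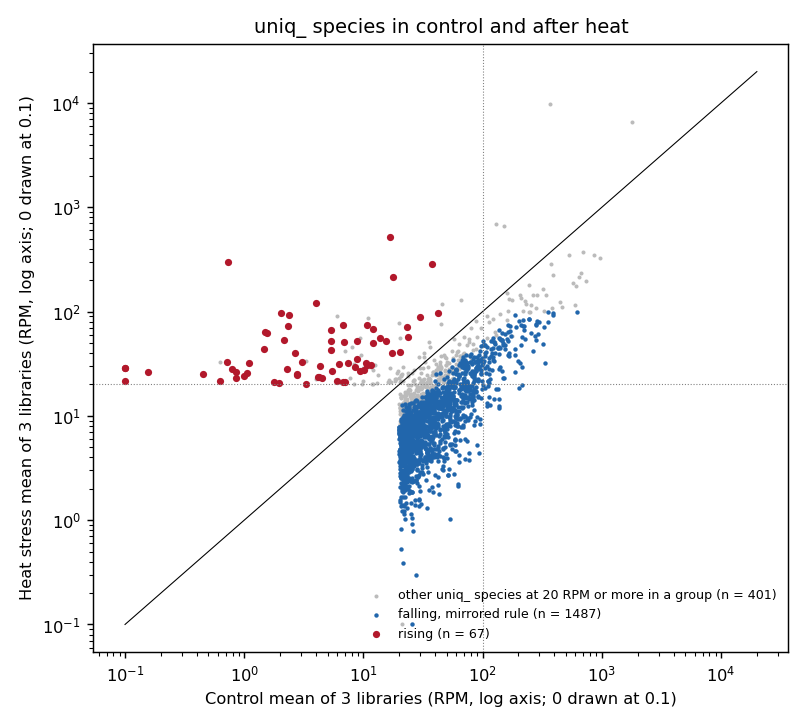
Mean of 3 control libraries (x axis, RPM, log) against mean of 3 heat stress libraries (y axis, RPM, log) for uniq_ species at 20 RPM or more in either group, with values of 0 drawn at 0.1. The 67 rising species (red) are a thin scatter above the line of equality and the 1487 falling species (blue) a dense cloud below it; dotted lines mark the limits of 20 and 100 RPM in the rule.

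How lopsided the 2 directions are depended on the scaling. RPM values sum to a fixed total, so the summed uniq_ RPM is lower whenever other species take a larger share of a library. A gain in other species and a loss of uniq_ RNA cannot be told apart from these values. When each library was scaled to its own uniq_ reads, 258 species were rising and 514 falling. With TMM scaling, which assumes that most species are unchanged, 101 were rising and 904 falling, and when scaled to the mmu_piR_ reads, 49 and 1913. All 67 species were among those rising under the TMM and uniq_ scalings, and 49 of them under the mmu_piR_ scaling. Dividing by the TMM factors (0.554 to 0.997 after heat, 1.20 to 1.26 in control) raises each heat stress value and lowers each control value. Scaling to uniq_ reads does the same. Keeping all 67 was thus fixed in advance there, and only the mmu_piR_ scaling could drop members. Falling species outnumbered rising ones under all of the scalings above. The median log2 fold change over the 33160 uniq_ species in the limma fit (on log2(RPM + 1)) was -1.17 as deposited and -0.86 with TMM. The balance of the mmu_piR_ species depended on the scaling too. Of the 17626 in the fit, 2807 were called higher and 1737 lower as deposited (adjusted p under 0.05). With TMM 3853 were called higher and 550 lower.

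Together the 67 species took up a small part of each library. They held 0.587% of the reads of heat stress replicate 1 (95% Wilson interval 0.578 to 0.598), 0.419% of replicate 2 (0.412 to 0.427) and 0.187% of replicate 3 (0.176 to 0.198). In control replicates 1, 2 and 3 they held 0.0439%, 0.0518% and 0.0553%. The intervals cover counting error only. The mean was 0.398% ± 0.201 (SD, n = 3) after heat and 0.0503% ± 0.00582 (SD, n = 3) in control, a ratio of 7.91. Within the uniq_ reads alone their share was 4.71%, 1.84% and 2.54% in heat stress replicates 1, 2 and 3, and 0.134% to 0.169% in the controls. Replicate 1 was highest on both measures, while replicate 3 was lowest of all reads and replicate 2 lowest of uniq_ reads.

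The uniq_ species outside the set held 13.8% ± 7.76 of the reads (SD, n = 3) after heat and 32.7% ± 0.041 (SD, n = 3) in control, a difference of -18.9 percentage points that was seen in all 3 heat stress libraries. With 3 libraries a group an exact permutation test (two-sided) cannot go below 0.1, and p was 0.1. This share leaves out species chosen for being higher after heat, which makes the difference slightly larger. Over all uniq_ reads the difference was -18.5 percentage points. The falling species held 7.32% ± 0.180 of the reads in control and 1.88% ± 1.43 after heat (SD, n = 3). Their summed share dropped by 5.44 percentage points, and that of the 67 was 0.348 percentage points higher.

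**Figure D2:**
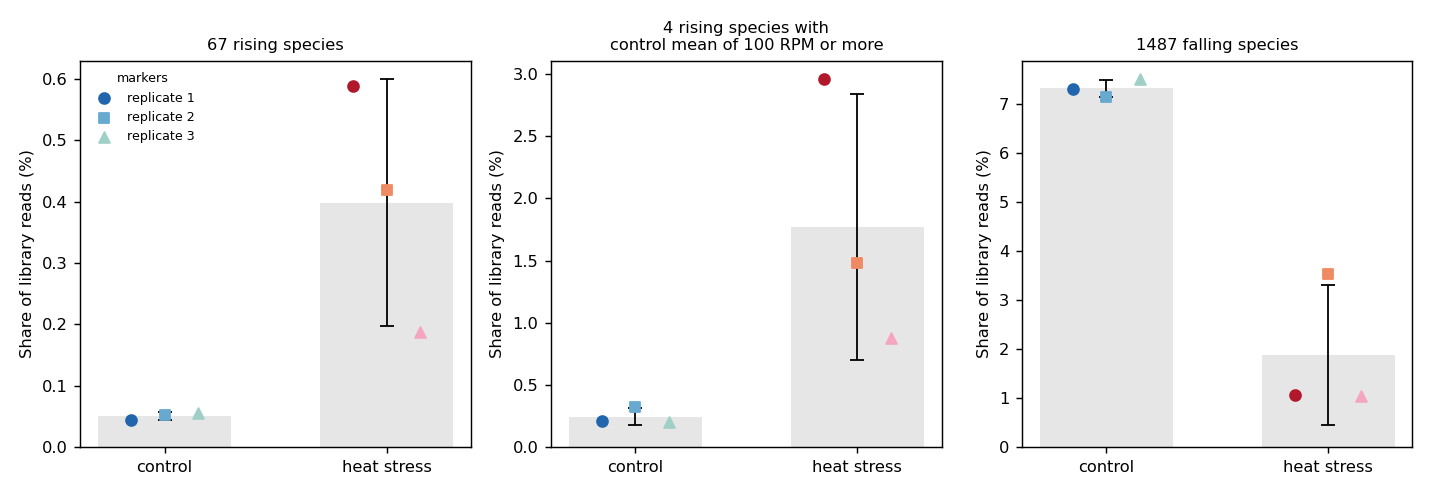
Share of each library's reads (y axis, %, different range in each panel) on the 67 rising species, on the 4 rising uniq_ species with a control mean of 100 RPM or more, and on the 1487 falling species. Bars are means, error bars SD over 3 libraries, and circles, squares and triangles replicates 1, 2 and 3; the 67 species reach 0.187% to 0.587% after heat, and the falling species stand at 7.15% to 7.51% in control.

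The limit of 100 RPM on the control mean left out 4 species whose groups likewise did not overlap, and these held more reads than the 67 together. uniq_343318, uniq_425662, uniq_344681 and uniq_345532 took 2.96%, 1.48% and 0.878% of all reads in heat stress replicates 1, 2 and 3, against 0.200% to 0.322% in control. The closest to the limit was uniq_343318, at 171.9, 180.3 and 36.5 RPM in control replicates 1, 2 and 3 and 1154, 722 and 216 RPM in heat stress replicates 1, 2 and 3. uniq_425662 stood at 137.1, 197.7 and 115.0 RPM in control and 1059, 554 and 362 RPM after heat. Most of the reads were on the other 2. uniq_344681 and uniq_345532 had 61613 and 40263 heat stress reads, against 4611 for uniq_343318 and 4043 for uniq_425662. The mean of uniq_344681 was 366 RPM in control and 9730 RPM after heat, and that of uniq_345532 1794 and 6644 RPM.

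Among the 67, abundance after heat was modest. The heat mean was between 20 and 30 RPM for 27 species, between 30 and 50 RPM for 15, between 50 and 100 RPM for 20 and above 100 RPM for 5, with a median of 32.4 RPM. The control mean had a median of 4.50 RPM. It was under 1 RPM for 12 species, between 1 and 10 RPM for 37 and 10 RPM or more for 18. Most of the set was thus also detected without heat stress: 62 of the 67 had a read in every control library.

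**Figure D3:**
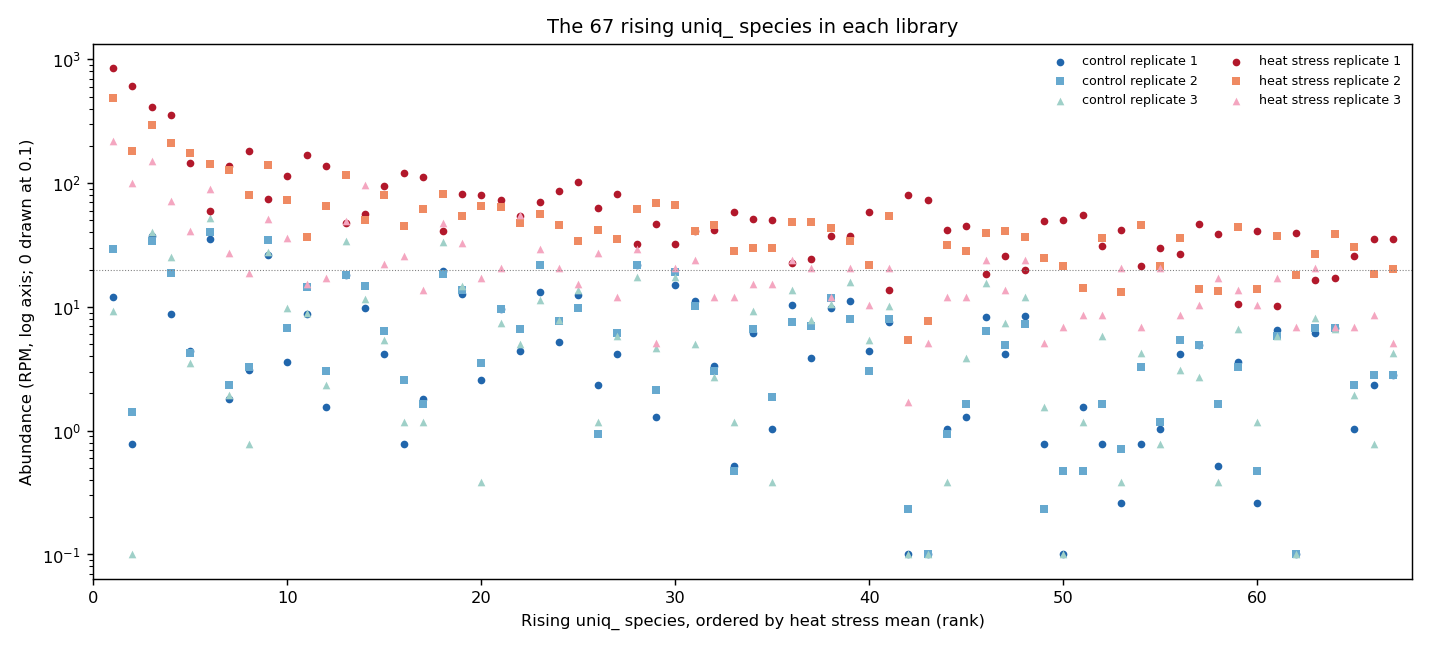
Abundance (y axis, RPM, log, with 0 drawn at 0.1) of the 67 rising species in each of the 6 libraries, ordered along the x axis by heat stress mean. Red, orange and pink markers are heat stress replicates 1, 2 and 3 and blue to green markers the controls; heat stress replicate 3 is the lowest heat stress marker for 53 of the 67 species.

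The most abundant member was uniq_344959, at 847, 484 and 218 RPM in heat stress replicates 1, 2 and 3. In control replicates 1, 2 and 3 it stood at 12.1, 29.1 and 9.33 RPM. Its mean was 516 ± 316 RPM after heat and 16.9 ± 10.7 RPM in control (SD, n = 3), a ratio of 30.6, from 3298 heat stress reads and 195 control reads. It carried 11.5% to 14.4% of the members' reads in each heat stress library, and the lowest heat stress value lay 189 RPM above the highest control.

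uniq_301642, nearly absent from the controls, stood at 610, 183 and 99.5 RPM in heat stress replicates 1, 2 and 3. The controls held 3, 6 and 0 reads of it, or 0.774, 1.41 and 0 RPM. The ratio of means, 408, was the highest among the members with more than 3 control reads, but it rests on 9 control reads, and without replicate 1 the heat mean was 141.1 RPM in place of 297 RPM.

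uniq_344577 had 394 control reads, more than any other of the 5 members with the highest heat means. It stood at 37.2, 34.3 and 40.4 RPM in control replicates 1, 2 and 3 and at 410, 295 and 151 RPM in heat stress replicates 1, 2 and 3, a 7.65-fold higher mean. The controls agreed closely, at 37.3 ± 3.05 RPM (SD, n = 3).

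uniq_390782 was at 8.78, 18.8 and 25.3 RPM in control and at 358, 209 and 72.1 RPM after heat, replicates 1, 2 and 3 in turn. uniq_464856 was at 4.39, 4.23 and 3.50 RPM in control and at 144.7, 173.9 and 41.2 RPM after heat. Their means were 12.1-fold and 29.7-fold higher after heat, and only the second was highest in replicate 2. Without replicate 1 the heat mean of uniq_390782 was 140.7 in place of 213 RPM.

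The next 7 by heat mean lay between 73.0 and 97.6 RPM after heat. uniq_434200 (97.6 ± 42.7 against 42.5 ± 8.63 RPM, SD, n = 3) and uniq_464885 (88.2 ± 45.6 against 29.8 ± 4.61 RPM) had the highest control means of these 7 and differed by 2.30-fold and 2.96-fold. uniq_435543 (97.2 ± 60.6 against 2.03 ± 0.283 RPM), uniq_343145 (93.4 ± 82.4 against 2.39 ± 1.40 RPM) and uniq_343310 (73.0 ± 60.2 against 2.31 ± 0.753 RPM) differed by 47.8-fold, 39.1-fold and 31.6-fold. Without replicate 1 the heat means of uniq_343145 and uniq_343310 were 49.3 and 41.1 RPM, more than 1.5 times lower. uniq_483626 (74.7 ± 39.3 against 6.71 ± 3.05 RPM) and uniq_118172 (73.8 ± 83.2 against 10.8 ± 3.30 RPM) differed by 11.1-fold and 6.86-fold. Similar levels after heat thus went with very different levels in control.

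The size of the rise, taken as the ratio of the heat mean to the control mean (or to the limit of 3 reads over the control group, 0.280 RPM, where the control mean was lower), had a median of 8.91. It was between 2 and 5 for 21 species, between 5 and 10 for 15, between 10 and 50 for 25 and above 50 for 6. The lowest was 2.04, for uniq_478637, at 20.3 ± 2.41 RPM in control and 41.3 ± 18.3 RPM after heat (SD, n = 3).

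Of the 6 largest ratios, the highest after the floor was applied was that of uniq_301642, and the other 5 belonged to species with 0 to 5 control reads. uniq_450685 and uniq_351752 had 0 of the 10702014 control reads, so their means of 28.6 and 21.4 RPM after heat were at least 102-fold and 76.5-fold higher against the limit of 3 reads. uniq_450685 stood at 73.0, 7.69 and 5.15 RPM in heat stress replicates 1, 2 and 3, and its mean was 6.42 RPM without replicate 1. uniq_351752 was at 39.4, 18.1 and 6.86 RPM, with a mean of 12.5 RPM without replicate 1.

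uniq_495001 had 1 control read and uniq_355422 had 2. Set against the pooled control reads, their heat means were 311-fold (counting interval of the control reads 55.8 to 12284) and 140.6-fold (38.9 to 1161) higher. The value of uniq_495001 came from replicate 1, with 181 reads, against 14 in replicate 2 and 1 in replicate 3, and the mean of 29.1 RPM was 3.55 RPM without replicate 1. For uniq_355422 the mean of 26.3 RPM was 14.2 RPM without replicate 1. uniq_499997, with 5 control reads, stood at 42.0, 13.1 and 20.6 RPM after heat and was 56.0-fold higher.

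Few reads stood behind many members in the shallow library. The median number of reads per member was 112 in heat stress replicate 1, 108 in replicate 2 and 10 in replicate 3, and 14 to 21 in the controls. In replicate 3, 30 of the 67 rested on fewer than 10 reads, and none did in replicates 1 and 2. With at least 10 reads demanded in each heat stress library, 37 species remained. Exact 95% Poisson limits were taken for each library. The lowest lower limit among the heat stress libraries and the highest upper limit among the controls were separate for 25 of the 67 and touched for 42. For 31 of these 42 they were separate when replicate 3 was set aside.

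The heat stress libraries agreed on the direction, which the rule requires, and less on the level. Across the 67 species Pearson's r of log2(RPM + 1) was 0.53 between heat stress replicates 1 and 2, 0.50 between 1 and 3 and 0.79 between 2 and 3. It was 0.89 to 0.95 between controls. The species share libraries and depth, so these coefficients only describe the libraries. The rule also cuts the heat mean at 20 RPM and leaves the control mean free down to 0. The spread of levels is thus set differently in the 2 groups, and their coefficients cannot be compared directly. Among the falling species, where the control mean is the one cut at 20 RPM, r was 0.58 to 0.79 between heat stress libraries. It was 0.77 to 0.96 between controls. The median SD between libraries was 0.98 on the log2(RPM + 1) scale after heat and 0.34 in control. The highest heat stress library exceeded the lowest by a median of 3.93-fold, by 5-fold or more for 18 species and by 10-fold or more for 4. Replicate 1 was above replicate 3 for 55 species, with a median ratio of 3.46, and replicate 2 above replicate 3 for 63, with a median ratio of 2.34. Leaving out replicate 1 lowered the heat mean by more than 1.5-fold for 23 members, and leaving out replicate 2 for 7. No mean fell that far without replicate 3, which was the highest library for only 2 members and the lowest for 53. A mean of 3 libraries cannot rise by more than 1.5-fold when 1 is left out, so nothing is read from this.

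**Figure D4:**
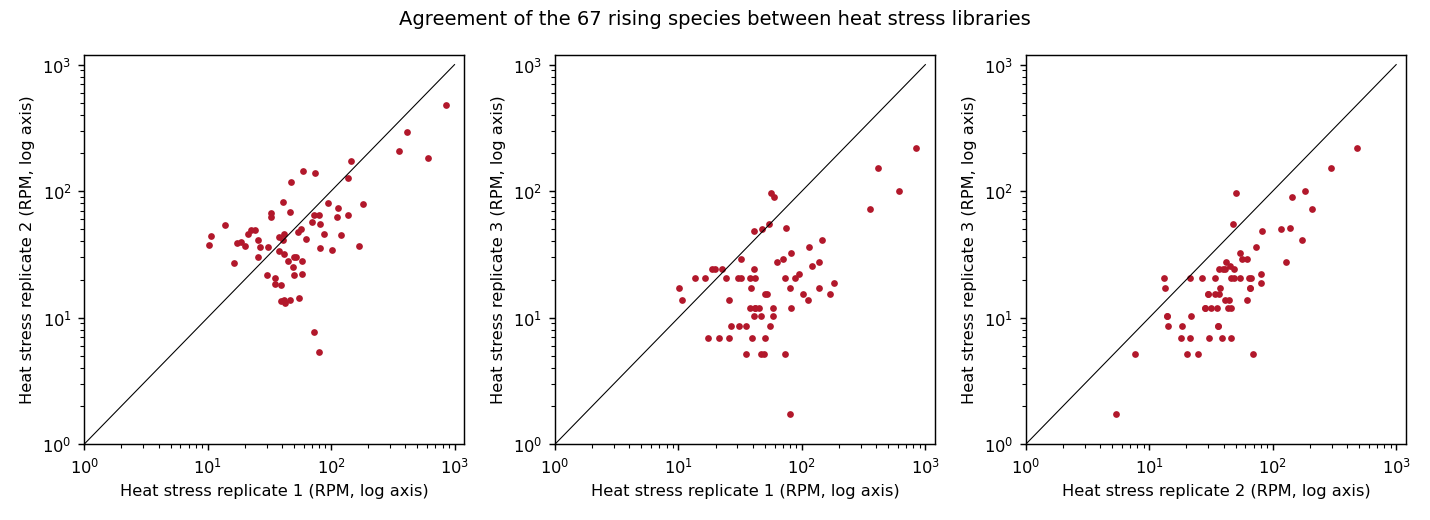
Abundance of the 67 rising species (points) in each pair of heat stress libraries (both axes RPM, log), with the line of equality. Points spread on both sides of the line for replicates 1 and 2 (r = 0.53) and lie mostly under it where replicate 3 is on the y axis.

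Members grouped by the library in which they peaked differed in median control level, with wide overlap. The 40 species highest in replicate 1 had a median control mean of 2.22 RPM (0 to 37.3). Their median ratio was 24.7 (2.63 to 408), with 27 of them at 10-fold or more. The 25 highest in replicate 2 had a median control mean of 7.06 RPM (1.78 to 42.5). Their median ratio was 3.45 (2.04 to 29.7), with 16 under 5-fold. The ratio has the control mean as its denominator, and no association was tested. The other 2, uniq_489802 and uniq_344783, were highest in replicate 3. Of the 1487 falling species, 97.0% had their highest heat stress value in replicate 2, the library with the most uniq_ reads, against 25 of the 67 rising ones.

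The most even member was uniq_489802, at 54.0, 47.7 and 54.9 RPM in heat stress replicates 1, 2 and 3 and 4.39, 6.58 and 5.05 RPM in control replicates 1, 2 and 3. Its mean of 52.2 ± 3.92 RPM (SD, n = 3) was 9.77-fold that of control, and highest and lowest heat stress library differed by 1.15-fold. uniq_408524 was at 30.1, 21.5 and 20.6 RPM after heat and 0.995 ± 0.202 RPM (SD, n = 3) in control. uniq_422296, uniq_435935 and uniq_196789 also differed by less than 2-fold between heat stress libraries, and their means were 3.02-fold, 4.02-fold and 2.63-fold higher than in control. In all, 7 of the 67 stayed within 2-fold across the heat stress libraries.

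At the other end, the heat stress libraries differed by 46.7-fold for uniq_495001, by 14.2-fold for uniq_450685, by 13.4-fold for uniq_435544, by 10.9-fold for uniq_118172 and by 9.63-fold for uniq_343145. All 5 were lowest in replicate 3, where they had 1 to 11 reads. uniq_118172 stood at 169 RPM in replicate 1, 36.9 RPM in replicate 2 and 15.4 RPM in replicate 3, the last only 0.872 RPM above its highest control, and its heat mean was 26.2 RPM without replicate 1.

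Choosing the species without 1 library, and then reading that library, gives values the choice did not use. Without heat stress replicate 1 the rule gave 58 species, and 55 of them (94.8%) were above the controls in replicate 1. Without replicate 2 it gave 62, and 62 (100%) were above the controls in replicate 2. Without the shallow replicate 3 it gave 127, and 83 (65.4%) were above the controls in replicate 3, where 7 had no read. For comparison, among all uniq_ species inside the same mean limits in the libraries kept, whether or not the groups overlapped, 17.4% of 413, 67.1% of 155 and 16.7% of 510 were above the controls in replicates 1, 2 and 3. Species chosen without control replicates 1, 2 and 3 numbered 67, 69 and 71, and 67 of each were below the heat stress libraries in the control left out, against 22.2% of 360, 19.7% of 361 and 20.6% of 354 species inside the mean limits. Each such choice still used the other libraries of both groups. The 67 in each control choice are the members themselves, which stay chosen when a control is left out. The comparison species include the chosen ones and many whose groups overlapped in the libraries kept. A higher percentage among species chosen for separate groups thus follows partly from the choice, and no conclusion is drawn from it.

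The limma fit over all 50786 tested species, on log2(RPM + 1), serves here as background only. It called 421 uniq_ species higher, 1.27% of the 33160 tested, and 14309 lower, 43.2%, at a Benjamini-Hochberg adjusted p under 0.05. All 67 members passed the filter on low values, which they do through the heat stress libraries alone. 57 were called higher and 10 were not, and as the rule used the same contrast nothing is read from this count. The 10 included uniq_434200, uniq_478637 and uniq_421447. The median log2 fold change of the members was 2.74, with a range of 0.92 to 7.11.

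The edges of the set were not sharp. The lowest heat means inside it were those of uniq_409878 (20.3 RPM), uniq_363560 (20.8 RPM) and uniq_22479 (21.0 RPM). Without replicate 1 the first and second of these were at 12.8 and 13.5 RPM. Just outside lay uniq_345505 (19.8 RPM), uniq_343279 (19.1 RPM) and uniq_450694 (19.0 RPM), at 0.365, 1.66 and 1.43 RPM in control. The members with the highest control means were uniq_434200 (42.5 RPM) and uniq_344577 (37.3 RPM), so no member came near the limit of 100 RPM. The groups were closest for uniq_422502, uniq_421447 and uniq_435544, whose lowest heat stress value exceeded the highest control by 0.048, 0.260 and 0.485 RPM, less than 1 read of replicate 3. Just outside on this count lay uniq_355062, uniq_20222 and uniq_18971, whose replicate 3 held 2, 0 and 2 reads. uniq_20222 was at 92.9 RPM in replicate 1 and 5.77 RPM in replicate 2, against 0.623 ± 0.206 RPM in control (SD, n = 3).

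The falling species with the highest control means stood above any member in control, which the rule's limit of 100 RPM on members fixes. In their higher group the lists overlapped. The heat mean of uniq_344959, 516 RPM, was below the control mean of uniq_486190 and above those of uniq_196825 and uniq_116963. uniq_486190 was at 98.9 ± 83.2 RPM after heat and 620 ± 78.1 RPM in control (SD, n = 3), uniq_196825 at 92.9 ± 83.3 and 393 ± 113 RPM, and uniq_116963 at 97.3 ± 65.0 and 388 ± 38.3 RPM. Over the falling species the median of the means was 33.1 RPM in control and 8.23 RPM after heat.

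The profiles most like those of the top members over the 6 libraries belonged to named piRNAs, among the 6582 species whose mean reached 20 RPM. For uniq_344959 they were mmu_piR_026195 (Pearson's r of log2(RPM + 1) = 0.996) and mmu_piR_034310 (r = 0.995), and both also came first for uniq_301642 (r = 0.999 each). For uniq_344577 they were mmu_piR_029055 (r = 0.999) and mmu_piR_007674 (r = 0.998). The likeness is of shape and not of size: mmu_piR_034310 stood at 29.9 ± 4.88 RPM in control and 155.4 ± 39.0 RPM after heat (SD, n = 3), a 5.19-fold higher mean, against 30.6-fold for uniq_344959. With 6 libraries in 2 groups such coefficients are common, and 193, 359 and 195 species reached r of 0.95 with uniq_344959, uniq_301642 and uniq_344577. By the rule 1941 mmu_piR_ species were rising against 67 uniq_ species, so a named piRNA as nearest profile may reflect their number. This was not tested.

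Identifier numbers of the members ran from 21165 to 506083, within a range of 1 to 1644141 for the listed uniq_ species. The numbers followed the libraries. From 360459 to 506247 each of the 59497 listed uniq_ species had a read in heat stress replicate 1, and above 506254 none had. No species numbered above 766946 had a read in any heat stress library, which covers 330920 listed species. A member must have a read in heat stress replicate 1, so all 67 had to lie at or below 506254. 51 of them lay in the long run, which also held 1202 of the 1487 falling species, and 16 below it. Whether the numbers also follow genomic position was not tested.

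Neighbouring numbers within that range were looked at for the 5 closest pairs of members. uniq_435543 and uniq_435544 are consecutive and had profiles of like shape over the 6 libraries (r of log2(RPM + 1) = 0.93), the second at 46.5, 68.9 and 5.15 RPM in heat stress replicates 1, 2 and 3 and the first at 137.2, 126.9 and 27.5 RPM. uniq_391210 and uniq_391212 (r = 0.91), uniq_434185 and uniq_434200 (r = 0.76), uniq_344577 and uniq_344596 (r = 0.99) and uniq_464856 and uniq_464885 (r = 0.94) lay 2, 15, 19 and 29 numbers apart. The members' shared direction by itself raises these coefficients. In steps of 1000 numbers, those from 344000 to 344999 held the most members, 5 of the 67, beside 1 of the 4 rising species above the control limit and 3 falling species, among 13 species at 20 RPM or more in either group. The step lists 398 uniq_ species in all, and over all listed uniq_ species the members are 0.0106%. That base includes the species numbered above 506254, which could not be members, so it is too wide to judge the grouping. The members' share among all uniq_ species at 20 RPM or more in either group was not set beside that of the step. The next fullest step held 4 members. This grouping was made after the values were seen. The order in which the numbers were given within a library is not given in the sources used here.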

How the data were processed

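Per the file headers, each library has 1 value column named tpm. The deposited values are RPM: each library sums to 1000000 over the listed species, with no length term. Dividing each library by its smallest value above 0 gave whole numbers for 100% of its values (tolerance 0.001 read), and these were taken as reads. Per the labels' protocols, RNA was isolated with Trizol and sequenced by Illumina's standard procedure. Trimming, aligner, annotation and build: not given in the sources used here.

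The members, named species and alternatives were chosen with earlier results of these data known. The rule was applied to the deposited RPM values. limma 3.58.1 (R 4.3.3; log2(RPM + 1), trend, robust) was fitted to 50786 species (1 RPM or more in 3 or more libraries), and tested on simulated data. edgeR 4.0.16 and DESeq2 1.42.0 on recovered reads were alternatives. Chi-square per degree of freedom between libraries of a group was 3.64 to 5.06 in control and 15.7 to 35.6 after heat. No library was thus counted as a repeat. The simulated libraries all had the same spread and no shift in composition. That check therefore does not cover the wider spread between the heat stress libraries, and does not vouch for the limma calls here.

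Named were members by heat mean (12), ratio (6), evenness (5 at each end), closeness to a limit and closeness of number, with the nearest species outside, the top falling species and the most alike profiles. uniq_425662, uniq_344681, uniq_345532 and the steps of identifier numbers were singled out after their values were seen. Scaling to mmu_piR_ reads and the minimum of 10 reads were added after the data were seen.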

Additional observations from a re-analysis of the deposited data

How the results depend on the processing

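The number of rising species was 124 with a heat mean of at least 10 RPM, 25 with at least 50 RPM, 40 when the nearest libraries had to differ 2-fold, and 37 with at least 10 reads in each heat stress library. It was 101 with TMM scaling, 258 scaled to uniq_ reads, 61 after thinning to 582789 reads (58 of them members) and 58 to 127 when each library was left out, the highest without heat stress replicate 3. The falling species numbered 3337, 426 and 613 under the first 3 of these, 904 with TMM, 514 scaled to uniq_ reads and 1481 to 1797 without 1 library.

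In limma, uniq_ species called higher and lower numbered 243 and 7192 of 33160 tested with a pseudocount of 0.1. With no filter they numbered 139 and 2178 of 634394 tested. With 10 RPM in 3 libraries they numbered 54 and 2162 of 3454 tested. These counts thus have different bases and cannot be compared directly. The fits below were on 33160 uniq_ species. With TMM scaling 508 were higher and 7527 lower. edgeR called 1028 higher and 5030 lower on the recovered reads, and DESeq2 572 and 4100. Without 1 library the calls ranged from 192 to 545 higher and from 6197 to 21956 lower, the fewest higher without control replicate 1 and the most lower without heat stress replicate 2. With the replicate block, 449 were higher and 15956 lower; the numbers share no pairing in the labels, and same-numbered deviations correlated at -0.017 to 0.016. The causes of these shifts were not tested.

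The difference in read share on the 67 was 0.253 to 0.453 percentage points without 1 library and 0.268 without the 2 most abundant members. Of 224 log2 fold changes of the 28 named members under alternatives, 15 moved by more than the SD between heat stress libraries. Of these 15, 8 came with a pseudocount of 0.1 and 5 with TMM. The rule fixes the sign when a library or the pseudocount changes, and also under these TMM factors, so the sign shows nothing. The shallow heat stress replicate 3 limits species of a few RPM.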
